A study of Mus musculus with 2 samples.

Results

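The 41 genes described here are switched on by interferons, and were read in the leukocytes of inflamed mouse skin, in 2 libraries of single cells. The members were taken by name, as 41 of the 27998 genes listed in the files, and every one had a row. The rule that picks them uses names and no measured value, but the list was drawn up with earlier results of these data known. Each library held live CD45+ cells sorted from the digested dorsal skin of 4 pooled C57Bl/6 mice. One pool was labelled WT and the other IL31RAKO, the label for mice without the receptor subunit for IL-31. The mice of both pools had received Biostir ointment, which contains Dermatophagoides farinae house dust mite, over 3 weeks with 2 applications weekly, and a 2% SDS solution was put on the skin 2 hours ahead of the ointment. Neither an untreated group nor the age of the mice is given in the labels. The study asked what IL-31 contributes to mite-induced skin inflammation.

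Interferons are secreted proteins that warn cells of infection. Type I interferons act through the receptor chains Ifnar1 and Ifnar2 and drive a complex that holds Stat2 and Irf9 onto a promoter element built from repeats of GAAA. Interferon gamma, made mainly by T and NK cells, acts through Ifngr1 and Ifngr2 and works through an element of the form TTCNNNGAA. Many of the genes they induce block viral replication, and many answer to both kinds of interferon, so that the list cannot be split cleanly by inducer.

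Because there was 1 library per genotype, no p-value can be given, and every difference below is a difference between 2 libraries. Levels are UMIs (unique molecular identifiers, 1 per captured transcript) scaled to 1000000 UMIs (CPM), summed over the cells of a type. Ratios are the library labelled IL31RAKO over the library labelled WT, with an exact 95% interval that covers counting error only and no variation between mice. A member was called measured at 50 or more UMIs over both libraries in the cells compared. A member that would have missed this minimum at its lower level in both libraries was measured only through the library where it was higher, so its difference follows from the filter; the number of such members is given beside each count. As single genes cannot be tested, counts use a fixed size of 1.5-fold. The tags come from the 3′ ends of transcripts, and levels are not compared between genes.

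The libraries held 57000499 and 71333292 UMIs, of which 11934 WT and 14619 IL31RAKO barcodes passed as cells. Cells were sorted into types by gates on marker genes (at least 3 markers detected and 20 marker UMIs per 10000). In both libraries, 247 barcode sequences were kept, and leaving them out moved no list median named here by more than the interval over its members. Il31ra itself had 11 UMIs in WT and 26 in IL31RAKO cells, so its tags did not separate the libraries. The deleted part of the gene is not given in the sources used here, and tags from outside it would check nothing. All directions below therefore rest on the labels.

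RefSeq promoter windows (build GRCm38.p6, from 250 bases before to 50 after the transcription start) were matched for 31 of the 41 members. The core of the interferon-stimulated response element was searched as GAAA, any 2 bases and GAAA again, on both strands, overlapping matches allowed. It lay in the window of 19 of the 31 members (61.3%), against 1079 of 27025 genes (3.99%). The gamma-activated element was searched as TTCNNNGAA, which reads the same on both strands, and lay in 11 of the 31 (35.5%), against 9.55% of all genes. The stretches below belong to some of the members with a match. Isg15, Ifit1, Ifit3, Oas3 and Rsad2 were higher in macrophages labelled IL31RAKO, as was Gbp7, a guanylate-binding protein. Bst2 had a ratio above 1 in macrophages and below 1 in monocytes. Ifit2 and Irf7, also higher in those macrophages, had no match, and Rtp4 and Ifi27l2a had no window. Gbp2, lower in them, had a match at -59 and is not shown. Each stretch is 70 bases written 5′ to 3′ along the gene's strand, upstream of the start site. Capitals mark matches to that core or its reverse complement.
Isg15: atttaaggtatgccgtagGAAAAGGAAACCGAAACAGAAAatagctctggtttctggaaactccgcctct
Ifit1: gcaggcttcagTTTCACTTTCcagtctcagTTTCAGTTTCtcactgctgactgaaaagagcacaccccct
Ifit3: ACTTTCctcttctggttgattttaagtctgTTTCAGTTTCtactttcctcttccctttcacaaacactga
Oas3: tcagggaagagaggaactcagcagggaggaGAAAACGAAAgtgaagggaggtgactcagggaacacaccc
Rsad2: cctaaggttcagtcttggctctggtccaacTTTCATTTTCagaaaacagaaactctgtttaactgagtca
Gbp7: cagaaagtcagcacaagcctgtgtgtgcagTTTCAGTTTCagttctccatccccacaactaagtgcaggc
Bst2: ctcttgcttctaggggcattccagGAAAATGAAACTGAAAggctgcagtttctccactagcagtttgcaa

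The stretches lie at chr4:156200845-156200914 (minus strand, Isg15), chr19:34640774-34640843 (plus, Ifit1), chr19:34583377-34583446 (plus, Ifit3) and chr5:120777695-120777764 (minus, Oas3). The others lie at chr12:26456533-26456602 (minus, Rsad2), chr3:142530253-142530322 (plus, Gbp7) and chr8:71537557-71537626 (minus, Bst2). Isg15 carried 3 overlapping matches in 1 run of GAAA repeats, and the capitals that open the Ifit3 stretch are the end of a match that begins before it. Members with a match can be set beside those without: in the macrophage gate the median log2 ratio was 0.41 over 19 members with a match and 0.45 over 11 without. In the monocyte gate it was -0.35 over 18 and -0.20 over 9. A match of letters is a description of these windows, and says nothing of binding.

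More members had their highest level in monocytes than in any other gate. Of 7 gates with at least 100 cells in each library, the monocyte gate held the highest level for 30 of the 41 members in WT and for 18 in IL31RAKO, the same 18 in both. The neutrophil gate was highest for 4 members in WT and 10 in IL31RAKO, and the macrophage gate for 4 and 6. Summed over all members, monocytes had 39.6 member UMIs per 10000 in WT and 38.0 in IL31RAKO. Macrophages had 16.5 and 22.4, neutrophils 14.7 and 19.6, T cells 8.17 and 10.2, and type 2 conventional dendritic cells (cDC2) 9.76 and 11.2. Type 1 conventional dendritic cells (cDC1), at 6.04 and 7.02, and Langerhans cells, at 6.60 and 7.08, were lowest in both libraries. Plasmacytoid dendritic cells, known for making type I interferon, passed their gate in 4 WT and 2 IL31RAKO cells only.

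**Figure D1:**
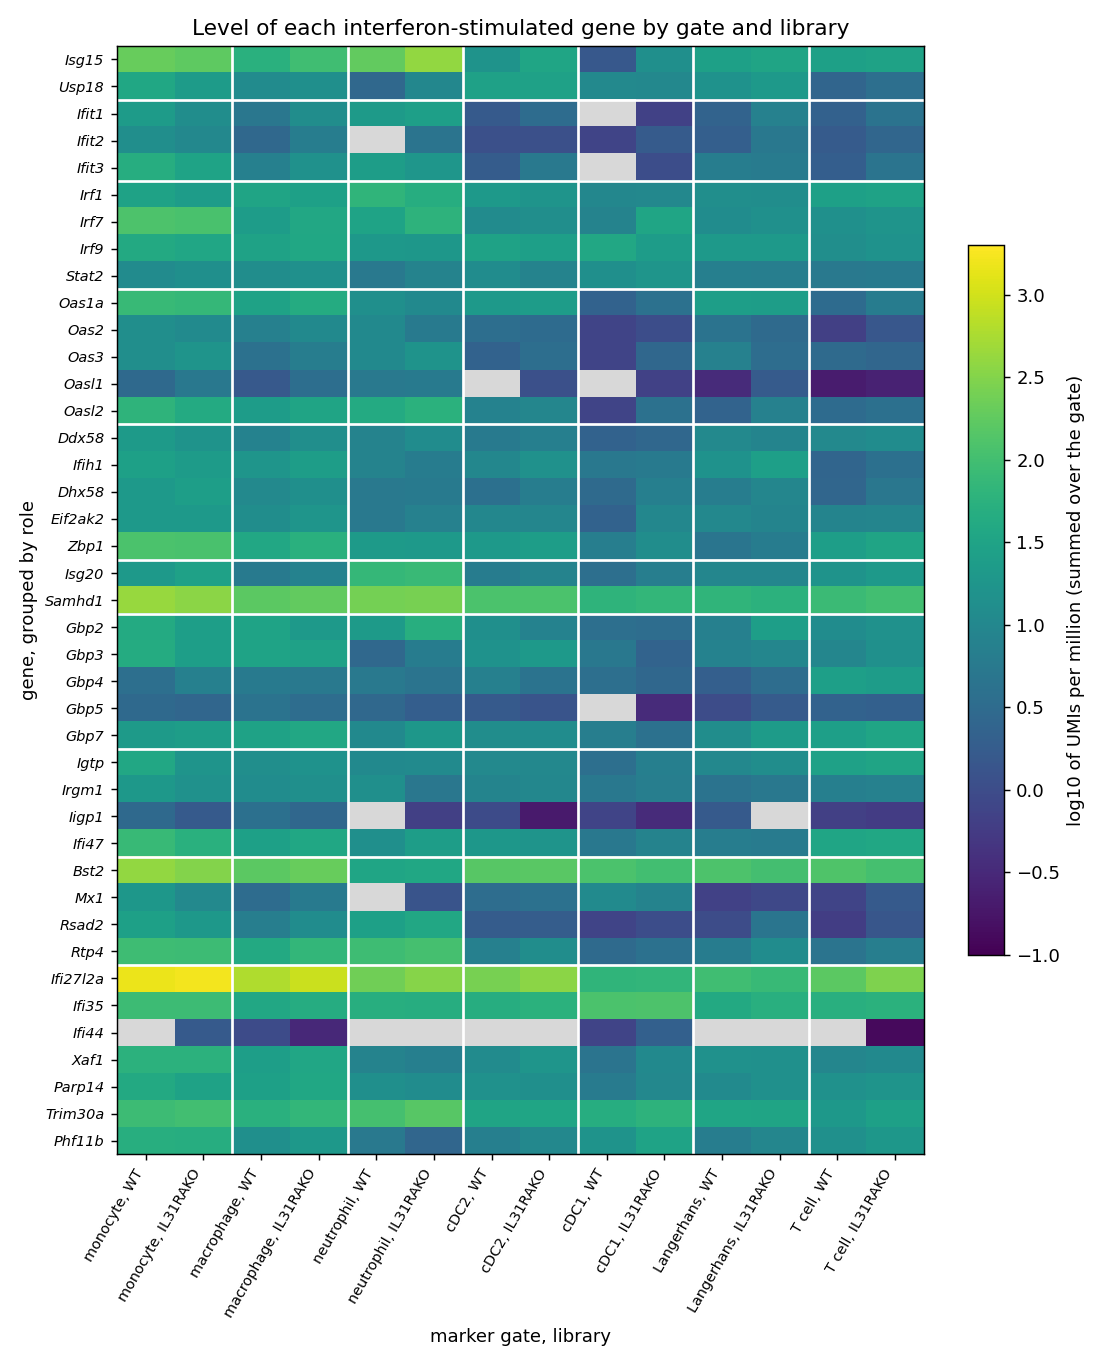
Level of the 41 members (rows, grouped by role) in 7 marker gates and 2 libraries (columns), as log10 of CPM; grey marks a gene with no UMI. The monocyte columns are brightest for 30 rows in WT and 18 in IL31RAKO, for example Ifi27l2a at 1478 in WT and 1702 in IL31RAKO, while Irf1, Isg20 and Trim30a are brightest in neutrophils and Gbp4 in T cells.

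Some members departed from that order. Gbp4, a guanylate-binding protein of the interferon gamma response, was highest in T cells, at 26.6 in WT and 23.7 in IL31RAKO, against 3.73 and 7.32 in monocytes. Ifi35 was highest in cDC1, at 122 and 126. Isg20, an RNA exonuclease, was highest in neutrophils, at 72.5 and 81.8, as was Trim30a, at 109 and 155. Irf1, a transcription factor that interferon gamma induces, was also highest in neutrophils, at 64.1 and 47.7. Ifi27l2a was the most counted member: it gave 27.0% of all member UMIs in WT and 34.3% in IL31RAKO, so sums over the list are also given without it.

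The members did not all move the same way between the libraries. In all kept cells, 34 of 40 measured members had a ratio above 1, beside 33.5% of all measured genes. Past 1.5-fold, 13 of the 40 were higher in the library labelled IL31RAKO and 2 were lower. Of all 13307 measured genes, 5.37% were higher and 7.92% lower by that rule. The median log2 ratio of the members was 0.40 (0.18 to 0.58, a 95% order-statistic interval over members), beside -0.10 over all genes. With the 7 gates weighted equally in both libraries, the median was 0.13, with 2 members higher and 1 lower, and the log2 ratio of Ifit3 was -0.18 in place of 0.77. The share of all genes past 1.5-fold under that weighting is not given here. The largest ratios were those of Oasl1, Rtp4, Rsad2 and Ifit1. Iigp1, an immunity-related GTPase, had a ratio of 0.606 (0.468 to 0.784), and Gbp4 one of 0.653 (0.587 to 0.726). Endothelial cells, which are not leukocytes, held 66 of the 138 Iigp1 UMIs in WT and 19 of the 111 in IL31RAKO. These came from gates of 66 and 25 cells. Within the T cell gate, where Gbp4 was highest, its ratio was 0.891 (0.776 to 1.02). The share of macrophages differed between the libraries (1837 of 11934 and 3471 of 14619 cells), as did that of T cells (5532 and 4585) and neutrophils (274 and 1103), so the results that follow are within gates.

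**Figure D2:**
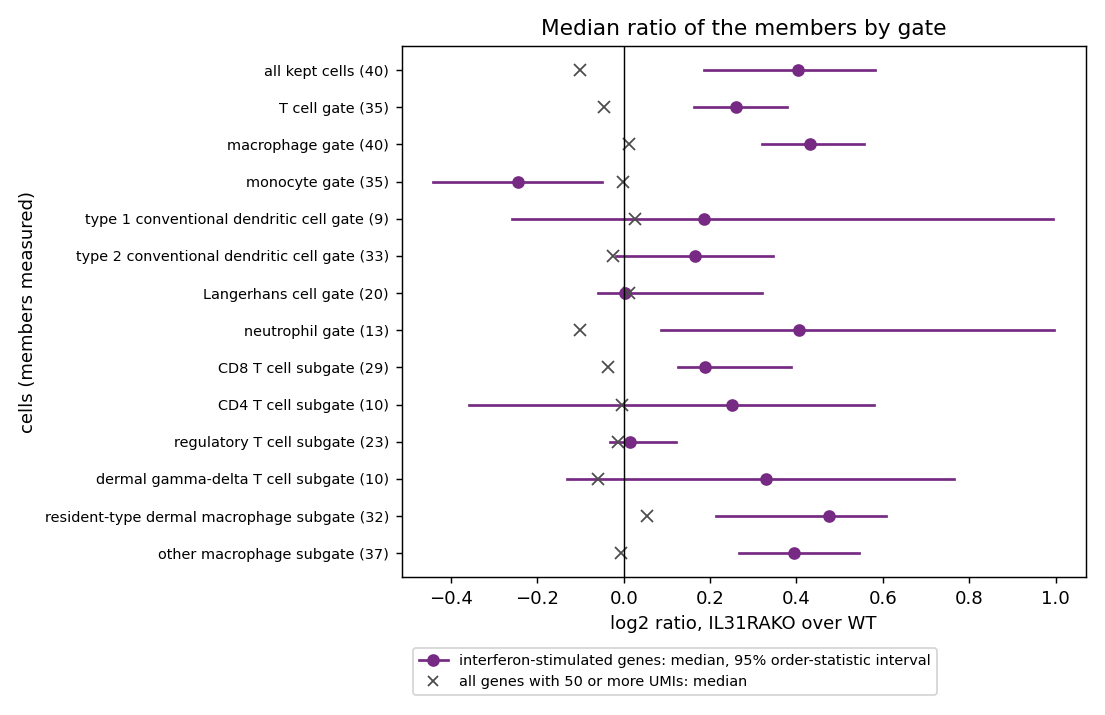
Median log2 ratio (IL31RAKO over WT, x axis) of the measured members in each cell group (number measured in brackets), with 95% order-statistic intervals over members, and crosses for all measured genes. Macrophages sit at 0.43 and monocytes at -0.25, on opposite sides of 0.

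In macrophages the 3 IFIT genes, Isg15, Rtp4 and Irf7 were higher in the library labelled IL31RAKO, and Gbp2 was lower. Of 40 measured members, 11 were higher past 1.5-fold (1 of them, Oasl1, only through the filter) and none lower, while 4.09% of 9770 measured genes were higher and 3.88% lower. The median log2 ratio was 0.43 (0.32 to 0.56), beside 0.01 over all genes. Ratios lay above 1 for 34 members, and for 52.0% of all measured genes.

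The IFIT proteins, which bind viral RNA ends, had the largest differences of any role group. Ifit1 stood at 5.13 CPM in WT macrophages and 12.7 in IL31RAKO ones, a ratio of 2.48 (1.69 to 3.75). Ifit2 stood at 2.89 and 6.67 (ratio 2.31, 1.38 to 4.08), and Ifit3 at 7.54 and 15.2 (2.02, 1.46 to 2.84). All 3 ratios were above 2, from 32, 18 and 47 UMIs in WT. Reads of Ifit1 and Ifit3 may be shared with the near-identical copies Ifit1bl1 and Ifit3b, and those of Oas1a with Oas1g, so values of single paralogs are uncertain.

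Isg15, a ubiquitin-like protein joined to other proteins during the interferon response, stood at 54.5 in WT and 95.1 in IL31RAKO macrophages, a ratio of 1.74 (1.54 to 1.97). Usp18, the enzyme that removes Isg15 and damps type I interferon signalling, stood at 11.9 and 14.0, and its interval spans 1. Among the 5 members of the OAS family, whose products make the messenger that activates RNase L or are related in sequence, all ratios lay above 1. Apart from Oasl1 (10 UMIs in WT and 47 in IL31RAKO), they ran from 1.37 for Oasl2 (23.6 and 32.2) to 1.65 for Oas3 (4.01 and 6.60).

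Of the sensors of foreign nucleic acid, all 5 had ratios above 1. Ddx58, which encodes RIG-I, stood at 8.18 and 13.3 (1.62, 1.18 to 2.26), and Ifih1, which encodes MDA5, at 17.6 and 24.8 (1.41, 1.13 to 1.76). Both Ddx58 levels lay below its free RNA levels, 17.0 in WT and 15.8 in IL31RAKO, as did the WT level of Ifih1 (21.2). Zbp1, a sensor of Z-form nucleic acid, stood at 37.5 and 54.2 (1.45, 1.24 to 1.68). Rsad2, which encodes viperin, stood at 6.90 and 12.4 (1.80, 1.28 to 2.58). Averaged per cell in place of summed, its log2 ratio was 0.29 in place of 0.85. Rtp4 stood at 40.2 and 69.9 (1.74, 1.51 to 2.01). Mx1 transcripts stood at 3.37 and 5.74 (1.71, 1.04 to 2.92).

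Among the transcription factors, Irf7, the amplifier of type I interferon production, stood at 23.7 in WT and 37.9 in IL31RAKO macrophages (log2 ratio 0.68). Irf9 stood at 29.7 and 37.0 (1.25, 1.05 to 1.49), and Stat2 at 12.7 and 14.4, with an interval that spans 1. Irf1 was on the other side, at 32.4 and 27.5 (0.848, 0.711 to 1.01), with an interval that reaches 1.

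The guanylate-binding proteins, large GTPases that attack the vacuoles of intracellular microbes, were mixed. Gbp2 stood at 30.9 in WT and 21.0 in IL31RAKO macrophages, a ratio of 0.680 (0.563 to 0.822), and was the only one of the 40 measured members whose interval lay wholly below 1. It passed 1.5-fold, as the only lower member, when doublets or shared barcodes were left out. Gbp3, Gbp4 and Gbp5 had ratios of 0.923, 0.916 and 0.789, each with an interval spanning 1. Gbp7 stood at 29.7 and 38.0 (1.28, 1.08 to 1.53). The median log2 ratio of these 5 was -0.13, beside 1.21 for the IFIT group. Because these paralogs are close in sequence, reads may be split between them. The immunity-related GTPases Igtp, Irgm1 and Ifi47 had ratios of 1.18, 1.11 and 1.31, and that of Iigp1 was 0.706, with an interval spanning 1 from 24 and 35 UMIs.

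None of the remaining members passed 1.5-fold in macrophages. Ifi27l2a, a small membrane protein and the most counted member, was at 609 in WT and 903 in IL31RAKO macrophages (1.48, 1.43 to 1.54). Samhd1, which degrades the nucleotides viruses need, was at 163 and 185 (1.14, 1.06 to 1.23). Xaf1 was at 26.0 and 35.7, Trim30a at 54.4 and 70.2, Parp14 at 28.1 and 36.7, Phf11b at 13.8 and 19.5 and Ifi35 at 37.8 and 45.8, and each of these intervals lay above 1. Isg20 was at 5.77 and 8.07, with an interval that spans 1, and Ifi44, with 6 and 4 UMIs, was too rare to compare.

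Both kinds of macrophage carried the difference. In macrophages with resident-type markers (480 WT and 1455 IL31RAKO cells), 10 of 32 measured members were higher (3 only through the filter) and 1 lower, with 6.49% and 3.62% of all genes so placed. In the other macrophages (1357 and 2016 cells) these counts were 11 (2 only through the filter) and 0 of 37, with 3.17% and 4.28% of all genes. The medians were 0.48 and 0.40. Gbp2 had ratios of 0.492 (0.339 to 0.722) and 0.782 (0.627 to 0.977) in them. The level of the resident-type marker list over the whole macrophage gate was 20.6 per 10000 in WT and 35.9 in IL31RAKO. That of 8 neutrophil markers was 1.06 and 3.31. The part of either in the members' ratios was not tested.

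Monocytes, where the members were most abundant, showed the opposite sign. Of 35 measured members, none was higher past 1.5-fold and 7 were lower (1, Mx1, only through the filter), while 4.84% of 6071 genes were higher and 4.1% lower. The median log2 ratio was -0.25 (-0.44 to -0.05), beside 0.00 over all genes. The gate rests on 268 WT and 563 IL31RAKO cells, of which 105 and 215 had only the 3 marker genes needed.

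Igtp stood at 37.3 in WT monocytes and 16.6 in IL31RAKO ones, a ratio of 0.447 (0.296 to 0.675). Gbp3 stood at 44.0 and 26.0 (0.590, 0.416 to 0.842), Gbp2 at 42.5 and 26.0 (0.611, 0.429 to 0.876). Ifit1 stood at 23.1 and 12.7 (0.547, 0.332 to 0.910), and Ifit3 at 48.5 and 30.6 (0.632, 0.455 to 0.882). Their UMIs lay in few cells: 10 WT and 24 IL31RAKO monocytes for Ifit1, and 16 and 39 for Ifit3. A single WT cell held 8 of the 31 Ifit1 UMIs, and a single one 15 of the 65 of Ifit3. The share of cells with a UMI was not lower in IL31RAKO (3.73% and 4.26% for Ifit1, 5.97% and 6.93% for Ifit3). Gbp7, at 21.6 and 25.0, had an interval that spans 1, and the guanylate-binding proteins Gbp4 and Gbp5 were not measured here. Isg15, at 200 and 173, Irf7, at 125 and 116, and Zbp1, at 122 and 117, had intervals that span 1. Ifi27l2a was higher, at 1478 and 1702 (1.15, 1.09 to 1.21), and gave 37.4% of the member UMIs there in WT and 44.7% in IL31RAKO. Without it the member sum was 24.8 per 10000 in WT and 21.0 in IL31RAKO monocytes, a ratio of 0.849 (0.814 to 0.885). In macrophages the sum without it was 10.4 and 13.4, a ratio of 1.29 (1.25 to 1.32).

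Of the 35 members measured in both gates, 24 had a ratio above 1 in macrophages and below 1 in monocytes. Of all measured genes, 52.0% lay above 1 in macrophages and 49.7% in monocytes, each gate taken alone. The share of all genes split this way between the 2 gates is not given here, so neither count has a direct background. For 6 of the 24 members (Ifit1, Ifit3, Oasl2, Samhd1, Ifi47 and Bst2) both intervals excluded 1 on opposite sides. In WT monocytes, those of Ifit1 and Ifit3 rest on 10 and 16 cells with a UMI. Bst2, which encodes the virus tether tetherin, stood at 165 and 199 in macrophages and 404 and 312 in monocytes. In a monocyte gate that asked for 1 more marker, the list median was -0.41, but Bst2 and Ifi27l2a changed sign there (log2 ratios of 0.15 and -0.10). Monocytes and macrophages lay closer together in the library labelled IL31RAKO for Ifit3, which was at 48.5 against 7.54 in WT and 30.6 against 15.2 in IL31RAKO. Levels of the macrophage marker list in the monocyte gate were 12.7 and 17.3 per 10000, and of the monocyte list 61.4 and 55.0. Their part in the result was not tested.

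**Figure D3:**
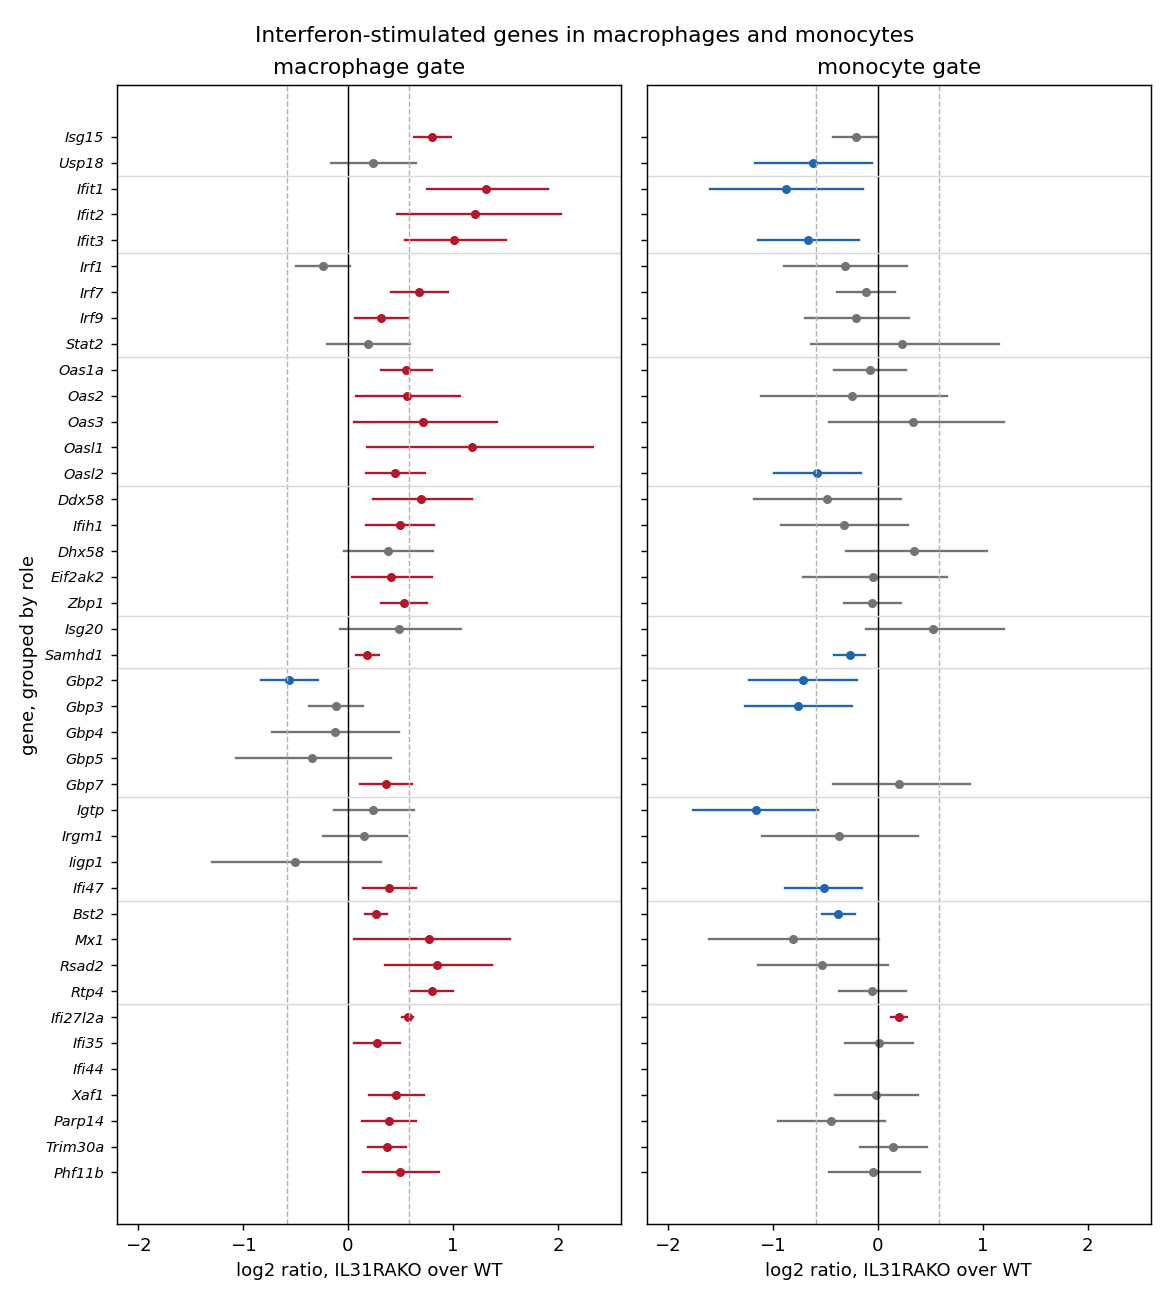
Log2 ratio (IL31RAKO over WT) of each measured member in macrophages (left) and monocytes (right), with exact 95% counting intervals; red and blue mark intervals wholly above and below 0, and dashed lines mark 1.5-fold. The IFIT and OAS rows lie to the right in macrophages, the Ifit1 and Ifit3 rows lie to the left in monocytes, and Gbp2 is left in both.

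In neutrophils 13 members were measured, in shallow cells (a median of 1156 UMIs in WT). Of these, 3 were higher past 1.5-fold (1, Gbp2, only through the filter) and none lower, beside 6.43% and 11.0% of 3327 genes, and the median log2 ratio was 0.41 (0.09 to 1.00). Isg15 was at 184 in WT and 406 in IL31RAKO neutrophils, a ratio of 2.21 (1.71 to 2.89), and in IL31RAKO this was its highest level in the 7 gates. Irf7 was at 30.7 and 61.2 (2.00, 1.07 to 4.13) and Gbp2 at 22.3 and 50.3, from 11 and 8 UMIs in WT. The WT values rest on 274 cells.

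In cDC2, 5 of 33 measured members were higher (1, Ifit3, only through the filter) and 2 lower, beside 2.15% and 2.91% of all genes. The median was 0.17 (-0.02 to 0.34, an interval that spans 0). Isg15 stood at 16.5 and 34.1 (2.07, 1.65 to 2.61), Ifit3 at 1.79 and 5.41, from 11 and 53 UMIs, and Rtp4 at 7.49 and 13.1 (1.74, 1.23 to 2.50). Gbp2 was lower, at 14.0 and 7.96 (0.568, 0.413 to 0.781), as was Gbp4, at 7.49 and 4.28 (0.572, 0.367 to 0.888). Stat2 was also lower, at 12.4 and 8.47 (0.684, 0.495 to 0.946). Bst2, at 155 and 156, had a ratio of 1.00.

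In cDC1, 2 of 9 measured members were higher (1, Irf7, only through the filter) and 1 lower (4.76% and 3.52% of all genes). Irf7 was at 8.32 in WT and 33.4 in IL31RAKO cDC1, from 11 and 98 UMIs. Irf9, its partner in type I signalling, was at 37.8 and 24.2 (0.639, 0.439 to 0.937). In Langerhans cells, the dendritic cells of the epidermis, 3 of 20 were higher (1, Gbp2, only through the filter) and none lower (4.52% and 3.44%), with a median of 0.00. Gbp2 was at 7.40 and 26.1 there, from 22 and 60 UMIs, Gbp7 at 12.8 and 23.0 (1.80, 1.16 to 2.81) and Ifih1 at 15.5 and 26.9 (1.74, 1.17 to 2.61).

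T cells had low levels of most members and a small difference. Of 35 measured members, 9 were higher past 1.5-fold and none lower, beside 3.93% and 3.59% of 10940 genes, with a median of 0.26 (0.16 to 0.38) against -0.05 over all genes. Ifi27l2a was at 165 in WT and 299 in IL31RAKO T cells (1.82, 1.74 to 1.90), Ifit3 at 1.89 and 4.54 (2.40, 1.58 to 3.71) and Oas1a at 3.19 and 6.35 (1.99, 1.43 to 2.80). The Ifit3 UMIs lay in 23 WT and 22 IL31RAKO T cells, 0.416% and 0.480% of the gate. A single IL31RAKO cell held 23 of the 70 Ifit3 UMIs of that library. Bst2 was at 129 and 109 (0.846, 0.794 to 0.900). For 24 of the 35 members the level in T cells was below that of free RNA, read from barcodes of 10 to 50 UMIs, in WT, and for 24 in IL31RAKO. Macrophage markers in the T cell gate stood at 2.09 per 10000 in WT and 3.31 in IL31RAKO, and neutrophil markers at 0.849 and 2.76. Among the 2434 and 871 T cells with no UMI of either marker list, the median of the 25 members still measured was 0.06, with 2 higher past 1.5-fold. The share of all genes past 1.5-fold in those cells is not given here. In them the log2 ratio of Rtp4 was -0.03 in place of 0.61. The log2 ratio of Ifi27l2a was 0.67 there in place of 0.86, and its level in the whole gate lay below its free RNA level, 531 in WT and 384 in IL31RAKO.

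Within T cells, 6 of 29 members were higher (3 only through the filter) and none lower in CD8 cells (3.04% and 3.36% of all genes). In CD4 cells outside the regulatory gate 1 of 10 was higher, only through the filter, and none lower (4.27% and 4.83%), and in dermal gamma-delta T cells 3 of 10 were higher and none lower (6.25% and 11.8%). In regulatory T cells none of the 23 measured members passed 1.5-fold either way (3.69% and 3.18%), and the median was 0.02. Ifi27l2a was at 471 and 538 in them, a ratio of 1.14 (1.06 to 1.23).

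The share of cells with many member transcripts was compared after every cell was thinned to 1000 UMIs, with shallower cells left out (228 WT and 264 IL31RAKO macrophages). At least 5 member UMIs were found in 7.96% of WT macrophages (6.68 to 9.39, exact binomial) and 13.6% of IL31RAKO ones (12.4 to 14.8). These intervals cover counting error over the cells of 1 library each, and no variation between mice or libraries. In neutrophils the shares were 3.47% and 10.3%, and in T cells 1.39% and 2.61%. In monocytes they were 29.8% and 30.1%. Unthinned, the macrophage shares were 44.1% and 56.2%. At least 3 member UMIs were found in 25.9% and 32.8% of macrophages with Ifi27l2a counted, and in 12.7% and 15.5% without it. In monocytes the shares without it were 29.4% and 27.1%, and the intervals without it overlapped in both gates.

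**Figure D4:**
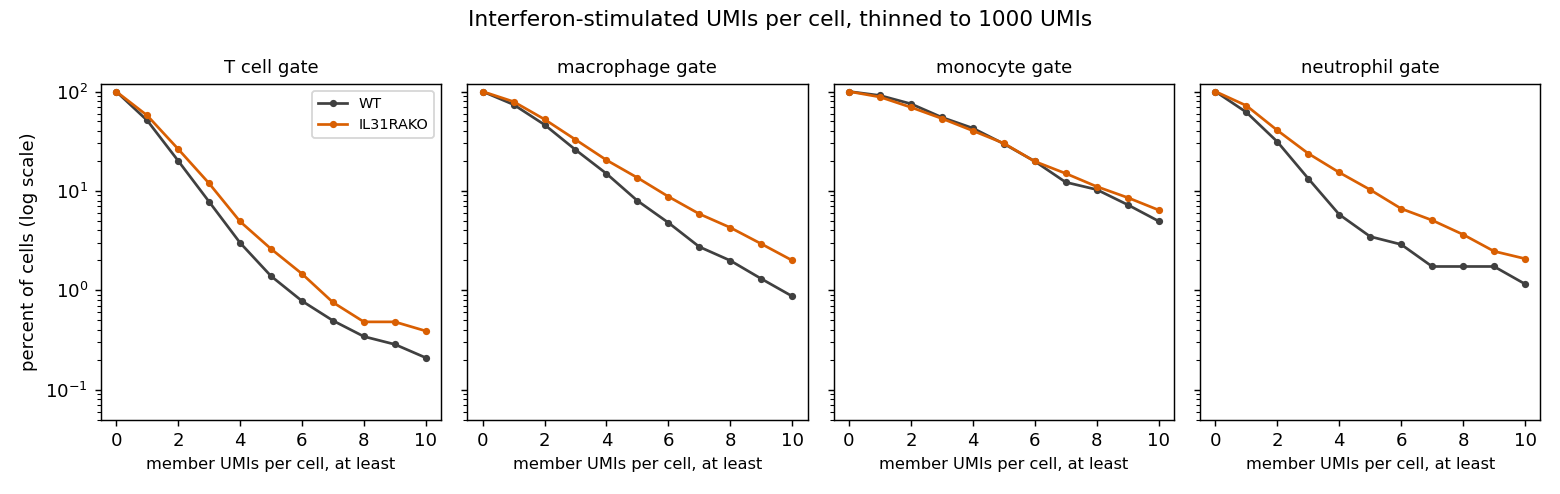
Percent of cells (log axis) with at least a given number of member UMIs per 1000 UMIs, in 4 gates and both libraries. The IL31RAKO line lies above the WT line in macrophages (13.6% against 7.96% at 5 UMIs) and neutrophils, and the lines run together in monocytes.

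The genes that make, receive and pass on interferon were read from lists of the pathway. Of 20 type I and III interferon genes, none reached 50 UMIs. Ifnb1 had 0 UMIs in WT and 3 in IL31RAKO cells, and Ifnk had 1 and 1. Differences in them were not detectable at this depth. Ifng was at 19.1 in WT and 12.3 in IL31RAKO cells (0.644, 0.584 to 0.711), but within the T cell gate it stood at 35.1 and 39.1 (1.11, 0.995 to 1.25). In CD8 T cells its ratio was 0.819 (0.692 to 0.967), and in CD4 T cells 1.83 (1.41 to 2.38).

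The receptor chains differed little in macrophages: Ifnar1 had a ratio of 1.09, Ifnar2 1.13, Ifngr1 1.26 and Ifngr2 1.19, and the 5 measured receptor genes of 6 all lay under 1.5-fold. In T cells Ifngr1 was at 184 and 296 (1.61, 1.54 to 1.68). Its free RNA level was 293 in WT, above the T cell level, and 195 in IL31RAKO, below it. The part of free RNA in this ratio was not tested. Of 13 genes of the interferon-induced MHC class I pathway measured in macrophages, none passed 1.5-fold either way, beside 4.09% of all genes higher and 3.88% lower. At those shares few of 13 genes, or of 5 receptor genes, would pass, so neither count sets these genes apart.

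Interferon-induced chemokines separated in macrophages. Cxcl9, a T cell attractant known as a target of interferon gamma, was at 29.2 in WT and 6.60 in IL31RAKO macrophages, a ratio of 0.226 (0.173 to 0.294), from UMIs in 35 and 25 cells. A single WT cell held 33 of its 182 UMIs in WT. Cxcl10, induced by both kinds of interferon, was at 16.4 and 26.1 (1.59, 1.27 to 2.01), and Ccl12 at 168 and 293 (1.74, 1.62 to 1.86). Among 41 measured genes of a further list of interferon-induced genes, 8 were higher past 1.5-fold in macrophages and 2 lower, beside 4.09% and 3.88% of all genes. The lower count is near the share over all genes. Its 2 genes were Gbp2b (0.418, 0.264 to 0.660) and Gbp8 (0.550, 0.397 to 0.764). Cmpk2, the neighbour of Rsad2 in the genome, was at 2.57 and 5.98 (2.33, 1.35 to 4.28).

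Free RNA was read from nearly empty droplets. In the barcodes of 10 to 50 UMIs, members made up 13.6 per 10000 in WT and 13.1 in IL31RAKO, a ratio of 0.957 (0.808 to 1.13). In macrophages 14 of 40 measured members in WT, and 10 in IL31RAKO, lay below their free RNA level, and in monocytes 2 and 6 of 35.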

How the data were processed

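The deposited files held raw UMI counts per gene and barcode, empty droplets included, for 1 library per genotype. Per the labels' protocols, 30000 cells per pool entered the Chromium Single Cell 3′ v2 kit. Per the submitters' processing notes, Cell Ranger 3.1, Seurat 3.2.2 and build mm10 were used, and the counts carry no filter.

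Barcodes with 500 UMIs, 250 genes and under 10% mitochondrial UMIs were kept. A cell entered a gate at 3 marker genes and 20 marker UMIs per 10000. Cells passing gates of several lineages (264 WT, 642 IL31RAKO) or none (1875 and 1986) were left out of gates. Doublets were otherwise left in. Scrublet's automatic threshold marked 0 WT cells, so an alternative removed the highest scores, 1139 and 1710 cells. Gates compared held at least 100 cells per library.

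UMIs were summed per gate and divided by the gate's total. Ratios have exact conditional binomial intervals, and the interval code was checked on drawn counts. Named members are those whose interval bound nearest 1 lay farthest from it, at most 10 each way in all cells, T cells and macrophages and 5 elsewhere, with levels given for any member. Pathway genes follow the same rule, beside fixed ones such as Ifng and Cxcl9. One gene of that list is not reported here. Ratios of other members, given to account for each role group, were chosen after their values were seen. The members and lists were chosen with earlier results of these data known. Python 3.11.15, numpy 2.4.6, scipy 1.17.1, pandas 2.3.3 and scanpy 1.11.5 were used. Alternatives changed the doublets, gates, cell filters, scaling, gene minimum, averaging and free RNA.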

Additional observations from a re-analysis of the deposited data

Results flagged for a closer look

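The list median had opposite signs in different gates, with intervals over members that exclude 0. It was -0.246 in monocytes, against 0.432 in macrophages, 0.261 in T cells and 0.406 in neutrophils. The difference between gates was not tested, as each rests on the same 2 libraries.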

How the results depend on the processing

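No paired analysis was possible because each group was 1 library. Of the list medians under an alternative, 65 stayed within the interval over members and 2 did not. They ran from 0.32 to 0.51 in macrophages, from -0.41 to -0.15 in monocytes, from 0.06 to 0.31 in T cells, from 0.14 to 0.56 in neutrophils, from 0.09 to 0.20 in cDC2 and from 0.13 to 0.50 in all cells. No median changed sign. The cause of the shifts that follow was not tested.

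With gates weighted equally, all cells gave a median of 0.13, 2 members higher and 1 lower, and Ifit3 reversed to -0.18 on the log2 scale. T cells with no macrophage or neutrophil UMI, an alternative chosen after seeing the data, gave a median of 0.060, 2 higher, and Rtp4 at -0.026. At 2-fold, 4 were higher and 0 lower in all cells, 2 higher in T cells, 4 higher in macrophages, 1 lower in monocytes, and 2 higher and 0 lower in cDC2. Of all genes, 236 and 310 of 13307 were higher and lower at 2-fold in all cells, 123 and 82 of 10940 in T cells, 101 and 107 of 9770 in macrophages, 60 and 33 of 6071 in monocytes and 51 and 28 of 9272 in cDC2. Apart from the 2-fold rule, shares over all genes under the alternatives are not given here. Those counts describe the members only and cannot be set against a background. In all cells 1 was lower under 5% mitochondrial UMIs, median-of-ratios scaling, per-cell averaging and free RNA subtraction. In macrophages 7 were higher by per-cell averaging and 17 after free RNA subtraction, and 1 lower with both, without doublets, without shared barcodes and with any gene seen in both libraries. In neutrophils 5 were higher at 1000 UMIs per cell, at 20 UMIs per gene, under median-of-ratios scaling and without each gene's top cell, and 8 with any gene. There, 1 was lower at 1000 UMIs and under the stricter gate, and 3 with any gene. In monocytes 2 were higher at 20 UMIs per gene and with any gene, and 1 by per-cell averaging and without top cells. The stricter monocyte gate reversed Ifi27l2a to -0.10 and Bst2 to 0.15. In cDC2 2 were higher by per-cell averaging and 8 after free RNA subtraction, and 1 was lower under the stricter gate. Of the single-member values, 556 held, 39 moved and 4 reversed.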
